A study of Rattus norvegicus with 4 samples.

Results

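Intermediate filament genes were examined in RT4D6, a rat Schwannoma cell line. It derives from a tumour of Schwann cells, which ensheath the axons of peripheral nerves. The 10 members were Gfap, Nes, Vim, Prph, Nefl, Nefm, Krt8, Krt18, Krt19 and Sync, out of 14217 genes that the platform annotation names, and they were found as the 12 probe sets, of 31042, that carry exactly 1 of these symbols. RNA was taken 48 h after treatment with either of 2 siRNAs for the transcription factor Sox10: the wild type siRNA, which is specific for Sox10 (2 arrays), and the mutant siRNA, the control (2 arrays). All 4 arrays therefore come from the same cell line, every sample carries an siRNA, and none is untreated. The label "wild type" names the siRNA and not the cells. The comparison asks which genes change when Sox10 is down-regulated in glial cells. The study describes independent pairs of cell samples.

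Intermediate filaments are rope-like polymers of the cytoskeleton, built from rod-shaped proteins whose choice marks the cell type. Vimentin is found in cells of mesenchymal origin and in many cultured cells, GFAP in glia, nestin in neural progenitors and immature Schwann cells, peripherin and neurofilaments in neurons, and keratins in epithelia. In the Schwann cell lineage vimentin and nestin are known from immature cells, and GFAP from immature and non-myelinating cells.

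Sequence upstream of the start site was available for 7 of the 10 members in a RefSeq table of rat promoters (build GRCr8), and is shown for Gfap and Nes, the members that were lower with the wild type siRNA, and for Vim, which did not pass the test. The 250 bases before the start site are printed 5′ to 3′ on the gene's strand: Gfap at chr10:88361662-88361911 on the minus strand, Nes at chr2:175736338-175736587 on the plus strand and Vim at chr17:81577011-81577260 on the plus strand. Capitals mark matches, on either strand, to 3 motifs of common promoter elements: the TATA box (TATAA), the CCAAT box (CCAAT) and the GC box (GGGCGG).
Gfap: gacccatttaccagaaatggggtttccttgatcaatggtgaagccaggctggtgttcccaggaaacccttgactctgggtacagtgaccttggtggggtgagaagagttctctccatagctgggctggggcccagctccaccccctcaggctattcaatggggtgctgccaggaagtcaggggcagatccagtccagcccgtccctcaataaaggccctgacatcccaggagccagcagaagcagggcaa
Nes: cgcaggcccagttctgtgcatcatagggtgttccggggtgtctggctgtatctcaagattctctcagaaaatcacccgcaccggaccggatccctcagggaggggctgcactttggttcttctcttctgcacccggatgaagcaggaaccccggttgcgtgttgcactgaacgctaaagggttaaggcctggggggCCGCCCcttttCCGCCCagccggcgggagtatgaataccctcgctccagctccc
Vim: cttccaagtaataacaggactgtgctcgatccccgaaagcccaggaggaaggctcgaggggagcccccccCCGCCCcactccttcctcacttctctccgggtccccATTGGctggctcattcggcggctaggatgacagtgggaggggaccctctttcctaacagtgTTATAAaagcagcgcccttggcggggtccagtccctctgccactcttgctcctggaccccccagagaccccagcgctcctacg
The Sox core element ACAAT, searched on both strands, was in none of the 7 member windows of 300 bases, which reach 50 bases past the start site, against 33.7% of all 33469 windows. For its candidate genes the study searched a much longer span, from further upstream to the end of the first intron, and filtered by conservation. Sites outside the windows used here were not looked for. In the 250 bases before the start, TATAA was in 4 of the 7 (Prph, Krt8, Krt18 and Vim), against 24% of all windows, and GGGCGG was in 5 of the 7 (Nes, Sync, Prph, Krt18 and Vim), against 30.5%. In Vim the match to TATAA reads on both strands and overlaps itself. CCAAT was in 1 (Vim), against 34% of all windows. The Gfap window held none of the 4 motifs and the Nes window held GGGCGG at 2 places. The annotated Nes gene reaches 873 bases further upstream than the start used here, so that its window lies within the gene model. These matches are a description of the windows.

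The signals are MAS5 intensities, 1 value per probe set on a linear scale, which can be compared between arrays for the same probe set but not between probe sets. The median was 105 and 101 on the wild type siRNA arrays, against 108 and 110.4 on the mutant siRNA arrays, and the 25th percentile, near which a signal is close to background, was 26.2 to 31.0. After subtraction of the array median on the log2 scale, limma was run over the 16125 probe sets that reached this median on at least 2 arrays. Sox10 itself had signals of 163 and 335 with the wild type siRNA, against 2873 and 2890 with the mutant siRNA, so that each array carries the difference its label names. All 8 tested probe sets for markers of Schwann cells and glia were lower at an adjusted p under 0.05, against 12.1% of all tested. Among them were the siRNA target Sox10, and Ngfr and Erbb3, which the study selected as lower from these same arrays. These are therefore not independent evidence, and whether the study also selected the other markers was not looked up. Erbb3 passed the filter only through the mutant siRNA arrays. The calls of Pmp22 ended without mutant siRNA replicate 1. The other 5 probe sets of the list, including those of Mbp, were too dim to test. The summed signal of that list was 4410 to 5657 with the wild type siRNA, against 21672 to 28979 with the mutant siRNA.

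Of the 12 member probe sets, 9 were bright enough to test. Gfap and Nes were lower with the wild type siRNA and 1 of the 2 Sync probe sets was higher at an adjusted p under 0.05, while Vim, Nefl, Nefm, Krt8 and the other Sync probe set did not pass. Among all probe sets tested, 26.7% were called, 12.1% lower and 14.6% higher, so that 3 calls among 9 are near the background of this comparison. Calls of at least 4-fold by the fit made up 2.17% of all tested in the lower direction, among them Gfap and Nes, and 0.967% in the higher, among them Sync, whose ratio of group means was 3.63. As deposited, before centring, signals of the groups did not overlap for 4 of the 9 downward (Gfap, Nes, Vim and 1 of Nefl) and for 1 upward (Sync). Of all tested probe sets, 31.9% and 35.8%, 67.7% together, behaved so. The median log2 fold change of the 9 was -0.14, against 0.13 over all tested. These counts leave out Prph, Krt18 and Krt19, which lay below the array median on all 4 arrays.

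**Figure D1:**
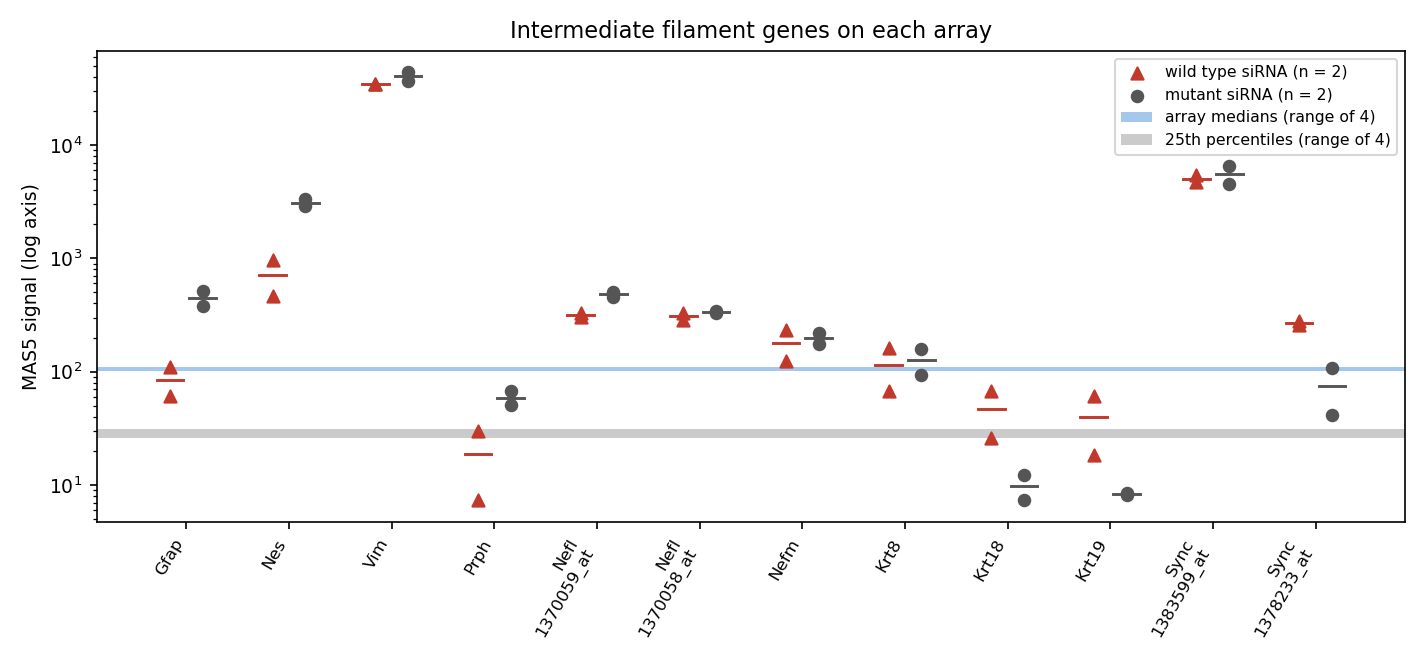
The 12 member probe sets on each of the 4 arrays, as MAS5 signal on a logarithmic axis, with horizontal lines for the mean of each group of 2. Gfap and Nes lie lower on both wild type siRNA arrays (red triangles) than on both mutant siRNA arrays (grey circles), whereas Prph, Krt18 and Krt19 lie under the array medians (blue band) on every array.

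Gfap, which encodes the filament protein of glia, had signals of 109.6 and 60.4 with the wild type siRNA, against 511 and 380.3 with the mutant siRNA. The first lay just above and the second below its array's median, and the groups were well apart. The log2 fold change was -2.36 (SE 0.39, 95% interval -3.24 to -1.48, adjusted p = 0.00521 from limma). It was of similar size in both pairs of same-numbered arrays, at -2.19 and -2.53. Leaving out mutant siRNA replicate 1 ended the call (adjusted p = 0.0523). This probe set is the 1 of the 12 that the study selected from these same arrays as at least 4-fold lower, so its direction is not independent evidence. As the RNA comes from bulk cultures, fewer GFAP-positive cells and less Gfap RNA per cell cannot be told apart, here and for each gene below.

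Nes encodes nestin, a large filament protein that assembles together with vimentin. Its signals were 469.9 and 960.3 with the wild type siRNA, against 3321 and 2874 with the mutant siRNA. All 4 signals were above the array median. The means were 715 ± 347 with the wild type siRNA and 3097 ± 316 with the mutant siRNA (SD, n = 2 each), so that the groups were apart but the wild type siRNA arrays varied more in proportion. The log2 fold change was -2.12 (SE 0.33, 95% interval -2.87 to -1.38, adjusted p = 0.00420). It was -2.79 between the replicate 1 arrays and -1.46 between the replicate 2 arrays. It passed with each array left out in turn, with adjusted p between 4.84e-05 and 0.0312.

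Vim encodes vimentin, with which several of the other members can copolymerize. Its signals were 34368 and 34777 with the wild type siRNA, against 43913 and 36824 with the mutant siRNA. As deposited, these signals did not overlap between the groups, but the gap was small beside the spread of the mutant siRNA arrays. After subtraction of the array median the groups overlapped. The same-numbered pairs then moved in opposite directions, at -0.32 and 0.04. The log2 fold change was -0.14 (SE 0.13, adjusted p = 0.469), and the 95% interval, -0.45 to 0.17, does not reach those of Gfap and Nes. The difference in response between the genes was not itself tested.

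**Figure D2:**
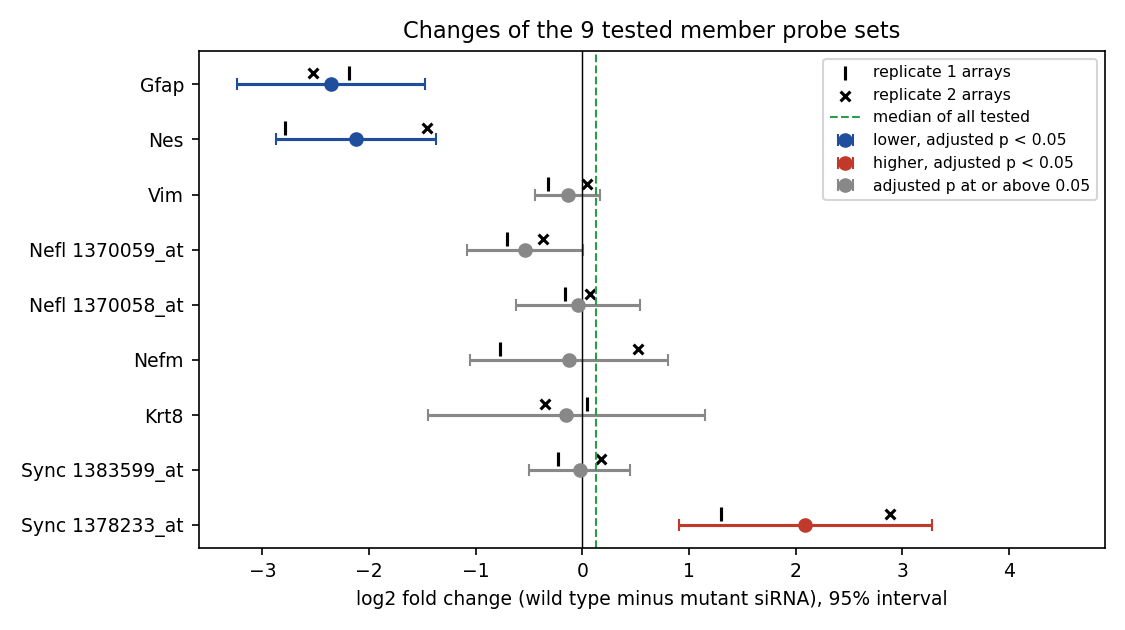
Log2 fold change (wild type minus mutant siRNA) of the 9 tested member probe sets with 95% intervals from limma; black marks give the difference within the replicate 1 and replicate 2 arrays, and the dashed line is the median of all tested, 0.13. Gfap and Nes lie to the left at -2.36 and -2.12, the dimmer Sync probe set to the right at 2.09, and the others have intervals that hold 0.

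Sync encodes syncoilin, an atypical filament protein known from muscle, where it binds the dystrophin-associated complex. Its 2 probe sets disagreed. In 1378233_at the signals were 258.5 and 282 with the wild type siRNA, against 107 and 41.6 with the mutant siRNA. The wild type siRNA arrays were alike and lay above the median, whereas both mutant siRNA arrays were below it. The log2 fold change was 2.09 (SE 0.52, 95% interval 0.90 to 3.28, adjusted p = 0.0217). This probe set passed the filter only through the wild type siRNA arrays, and leaving out mutant siRNA replicate 2 ended the call, at a log2 fold change of 1.39 (adjusted p = 0.0682). Without mutant siRNA replicate 1 it was 2.79. In 1383599_at, the brighter probe set, the signals were 5415 and 4668 with the wild type siRNA, against 6495 and 4504 with the mutant siRNA. Here the groups overlapped, with a log2 fold change of -0.03 (95% interval -0.50 to 0.45, adjusted p = 0.938). The intervals of the probe sets do not meet, so no single direction is given for the gene. Such a split was common: of 2618 genes with several tested probe sets, 838 had some called and some not.

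The neurofilament genes, which encode the light (Nefl) and medium (Nefm) subunits of the filaments of axons, did not pass. They are neighbours in the rat genome with no protein-coding gene between them. In the Nefl probe set 1370059_at the signals were 305 and 327 with the wild type siRNA, against 509.5 and 459 with the mutant siRNA. The groups were apart in this probe set, at a log2 fold change of -0.53 (95% interval -1.08 to 0.01, adjusted p = 0.126). In the second, 1370058_at, they were 286 and 328 with the wild type siRNA, against 326.5 and 339.6 with the mutant siRNA, which overlapped, with a log2 fold change of -0.04 (95% interval -0.62 to 0.54, adjusted p = 0.917). Nefm had signals of 124 and 232.5 with the wild type siRNA, against 217 and 176 with the mutant siRNA. Its arrays moved in opposite directions in the same-numbered pairs, at -0.77 and 0.53, and the log2 fold change was -0.12 (95% interval -1.05 to 0.80, adjusted p = 0.844). Prph, the peripherin gene of peripheral neurons, had signals of 7.3 and 30 with the wild type siRNA, against 50.5 and 67.2 with the mutant siRNA. Although these groups do not overlap, all 4 signals lie below the array median, where 19.7% of all 14917 untested probe sets showed the same pattern. Without the filter Prph did not pass (adjusted p = 0.350). Among 14 probe sets for markers of neurons, 10 were below the median on all 4 arrays, including those of Snap25 and Stmn2. Over all tested probe sets of the table, 12.1% were called lower and 14.6% higher. Of the 4 tested neuron probe sets, 1, of Map2, was lower (log2 fold change -0.96, adjusted p = 0.0373), a call that ended without mutant siRNA replicate 1 or wild type siRNA replicate 1. The other tested Map2 probe set did not pass (adjusted p = 0.500). Nor did those of Tubb3, at 0.29, and Uchl1, at 0.15 (adjusted p = 0.679 and 0.519). Uchl1 had signals of 4870 and 5650 with the wild type siRNA, against 5038 and 4930 with the mutant siRNA. The summed signal of the list, most of it from Uchl1, was 6368 to 7432 with the wild type siRNA and 7111 to 8691 with the mutant siRNA.

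Keratins 8 and 18 pair with each other in simple epithelia, and keratin 19 can take the place of keratin 18. Krt8 had signals of 161 and 67.0 with the wild type siRNA, against 159 and 93.0 with the mutant siRNA. The replicate 1 arrays were higher than the replicate 2 arrays in both groups, and the siRNAs were not distinguished, with a log2 fold change of -0.15 (95% interval -1.45 to 1.15, adjusted p = 0.865). Krt18, which lies beside Krt8 in the genome with no protein-coding gene between them, had signals of 26.2 and 67.2 with the wild type siRNA, against 7.3 and 12.3 with the mutant siRNA. Krt19 had 61.0 and 18.5 with the wild type siRNA, against 8.1 and 8.5 with the mutant siRNA. In both genes the mutant siRNA signals were below the 25th percentile and 1 wild type siRNA signal was as well. No fold is given for them, as the lower values are near background. The upward separation was found in 15.8% of the untested probe sets, and without the filter neither gene passed (adjusted p = 0.295 for Krt18 and 0.349 for Krt19). Of 9 probe sets for epithelial markers, 7, including those of the cadherin gene Cdh1, were below the median on all 4 arrays. Of the 2 tested, 1 was lower (Epcam, log2 fold change -0.92, adjusted p = 0.0231), against 12.1% lower over all tested probe sets. Epcam did not pass without wild type siRNA replicate 1 or either mutant siRNA array (adjusted p = 0.0687 to 0.132), and the other, Cldn4, was at 0.61 and did not pass (adjusted p = 0.409). The list, with most of its signal from Epcam, summed to 675 to 750.4 with the wild type siRNA and to 1163 to 1396 with the mutant siRNA.

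**Figure D3:**
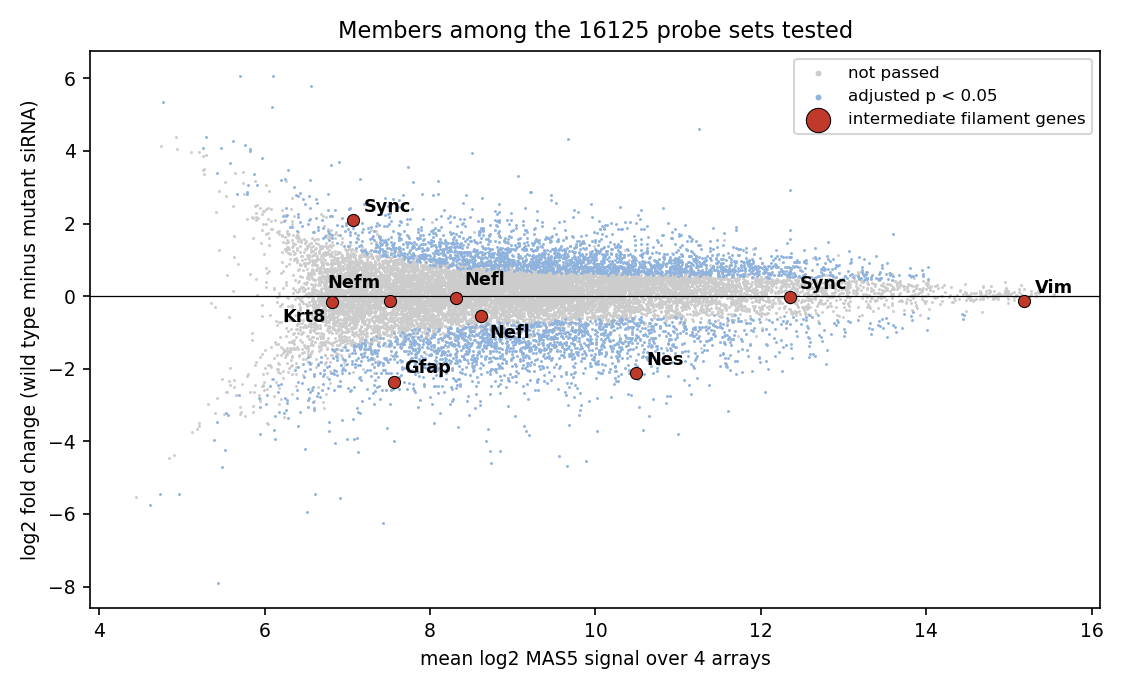
Log2 fold change (wild type minus mutant siRNA) against the mean log2 MAS5 signal over 4 arrays for the 16125 probe sets tested, blue where the adjusted p is under 0.05 and grey where it is not. The 9 tested member probe sets are in red, with Gfap at -2.36 and Nes at -2.12 among the lower calls and Vim, at -0.14, at the bright end.

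The rest of the intermediate filament family was read from a list of 31 genes, 39 probe sets, of which 9 were bright enough to test. By limma's adjusted p, 5 were called lower and 0 higher (6 and 0 without adjustment), and the median log2 fold change was -1.02, against 12.1% lower, 14.6% higher and a median of 0.13 over all tested. Synm, the gene of synemin, a partner of vimentin in mixed filaments, had signals of 166 and 93.8 with the wild type siRNA, against 962 and 578 with the mutant siRNA. Both wild type siRNA arrays were clearly below both mutant siRNA arrays, with a log2 fold change of -2.50 (SE 0.36, adjusted p = 0.00357). This call held with each array left out, although 2 further Synm probe sets were too dim to test. The other lower calls were of lamins, which form the filament layer under the nuclear envelope. Lmna, of the A-type lamins, was at -1.30 and -0.80 in its probe sets (adjusted p = 0.00803 and 0.00956), calls that both ended without mutant siRNA replicate 1 (adjusted p = 0.0563 and 0.0695). Lmnb1, of the B-type lamins, was at -1.18 in 1373897_at (adjusted p = 0.00549), a call that held with each array left out, and did not pass in its other probe sets, at -0.71 and -1.70 (adjusted p = 0.0539 and 0.176). Lmnb2 was at -0.92 (adjusted p = 0.0266), and this call was lost without wild type siRNA replicate 1 or either mutant siRNA array (adjusted p = 0.0702 to 0.150).

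The other 30 probe sets of this list were too dim to test. Des, the filament gene of muscle, had signals of 30.6 and 53.3 with the wild type siRNA, against 62.8 and 96.6 with the mutant siRNA, all below the array median. Nefh, the heavy neurofilament subunit, had signals of 2.2 and 2.5 with the wild type siRNA, against 7.9 and 15.2 with the mutant siRNA, all below the 25th percentile. Of the other keratins only Krt10 and Krt86 could be tested, and neither passed (adjusted p = 0.130 and 0.599). Of 15 probe sets for smooth muscle markers, 7 were too dim to test, among them those of Cnn1, Actg2, Lmod1 and Myocd. Of the 8 tested, 3 were higher and 0 lower by limma's adjusted p (4 and 1 without adjustment). Over all tested probe sets 14.6% were higher and 12.1% lower. The calls were Acta2, smooth muscle actin, at 2.37, Tagln, transgelin, at 1.72 and 1 probe set of Cald1, caldesmon, at 0.77 (adjusted p = 0.0182, 0.00247 and 0.0395). The other tested Cald1 probe set, at 0.79, had overlapping groups and did not pass (adjusted p = 0.118). The tested probe sets of Myh11 and Mylk did not pass (adjusted p = 0.137 and 0.631). Run without the intensity trend, limma kept the call of Tagln (adjusted p = 0.0332) but not those of Acta2 and Cald1 (adjusted p = 0.0780 and 0.138). The calls of Acta2 and Cald1 were not kept when mutant siRNA replicate 1 was left out (adjusted p = 0.0808 and 0.203), nor that of Cald1 without wild type siRNA replicate 2 (adjusted p = 0.154). A probe set of Smtn, smoothelin, at -0.84, did not pass (adjusted p = 0.0633) but was called lower with the signals as deposited and without wild type siRNA replicate 2 (adjusted p = 0.0438 and 0.0202). The summed signal of the smooth muscle list, most of it from Tagln and Cald1, was 44278 to 61518 with the wild type siRNA and 19846 to 30510 with the mutant siRNA. The part of the smooth muscle and glial markers in the changes of the filament genes was not tested. Of 3 tested probe sets for fibroblast markers, 0 were called by limma's adjusted p (2 higher without adjustment), although 1 of Col1a1 and that of Col3a1 passed without wild type siRNA replicate 1 (adjusted p = 0.00767 and 0.00553). Of 3 for melanocyte markers 1 was called. The brighter Tyrp1 probe set had overlapping groups and did not pass (log2 fold change 1.39, adjusted p = 0.103). The other was higher (log2 fold change 1.28, adjusted p = 0.0498), but not with the signals as deposited or without the intensity trend (adjusted p = 0.0523 and 0.107). That call ended without mutant siRNA replicate 2 or either wild type siRNA array (adjusted p = 0.0560 to 0.234), and Pmel, at -0.86, did not pass (adjusted p = 0.0816).

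Linkers tie filaments to desmosomes, to other parts of the cytoskeleton or to the nucleus. Of 12 tested probe sets 5 were lower and 0 higher by limma's adjusted p (6 and 2 without adjustment), and the median log2 fold change was -0.62. Over all tested probe sets 12.1% were called lower and 14.6% higher, with a median of 0.13. Plec, plectin, which cross-links filaments to other structures, had signals of 2037 and 2107 with the wild type siRNA, against 5505 and 4402 with the mutant siRNA. The groups were far apart, at a log2 fold change of -1.17 (SE 0.19, adjusted p = 0.00469), and the call held with each array left out. Pkp1, plakophilin 1 of desmosomes, was at -1.69 (adjusted p = 0.0115), Jup, plakoglobin, at -1.15 (adjusted p = 0.00918) and Dst, dystonin, at -0.93 in 1 of its 3 tested probe sets (adjusted p = 0.0323). None of these 3 calls passed once mutant siRNA replicate 1 was left out (adjusted p = 0.0662, 0.0647 and 0.183), and that of Dst also without wild type siRNA replicate 1 (adjusted p = 0.117). Without mutant siRNA replicate 1 the only linker still called lower was Plec. Dsp, desmoplakin, did not pass (log2 fold change -0.65, adjusted p = 0.0920), nor did Macf1, at 0.80 (adjusted p = 0.100).

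Among 25 tested probe sets of proteins that bind, modify or degrade filaments, 9 were lower and 1 was higher (9 and 3 without adjustment), with a median log2 fold change of -0.18. The shares over all tested were 12.1% lower and 14.6% higher, and the median was 0.13. Cryab, a small heat shock protein that associates with GFAP and desmin filaments, had signals of 664 and 1202 with the wild type siRNA, against 3854 and 3057 with the mutant siRNA. It was lower on both wild type siRNA arrays, at a log2 fold change of -1.86 (SE 0.30, adjusted p = 0.00480), and the call held with each array left out. Trim2, a ubiquitin ligase known in mouse to act on the light neurofilament subunit, was lower in all 3 of its probe sets, at -1.84, -1.83 and -1.04 (adjusted p = 0.0113, 0.00295 and 0.0101). Of these calls, the first and the last did not pass without mutant siRNA replicate 1 (adjusted p = 0.0791 and 0.0734). Rock2, a kinase that can phosphorylate GFAP and vimentin, was at -1.83 and -1.59 in 2 probe sets and at -0.04 and -0.14 in the others, which did not pass. Without mutant siRNA replicate 2 the call at -1.83 was lost (adjusted p = 0.0792), as was that at -1.59 without mutant siRNA replicate 1 (adjusted p = 0.0509). Further members that were lower, Cdk1, Plk1 and Aurkb, named after their values were seen, are kinases of mitosis as well as filament kinases, at -1.62, -1.25 and -1.16 (adjusted p = 0.0131, 0.0220 and 0.0333). All 3 calls were lost without mutant siRNA replicate 2 (adjusted p = 0.0689, 0.134 and 0.158), those of Plk1 and Aurkb also without wild type siRNA replicate 1 (adjusted p = 0.0554 and 0.0984), and that of Aurkb without mutant siRNA replicate 1 (adjusted p = 0.0764). The single higher call was Dnajb6, a chaperone that binds keratin 18, at 0.67 (adjusted p = 0.0283), a call that needed both mutant siRNA arrays and wild type siRNA replicate 2 (adjusted p = 0.0764 to 0.129 without 1 of them).

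**Figure D4:**
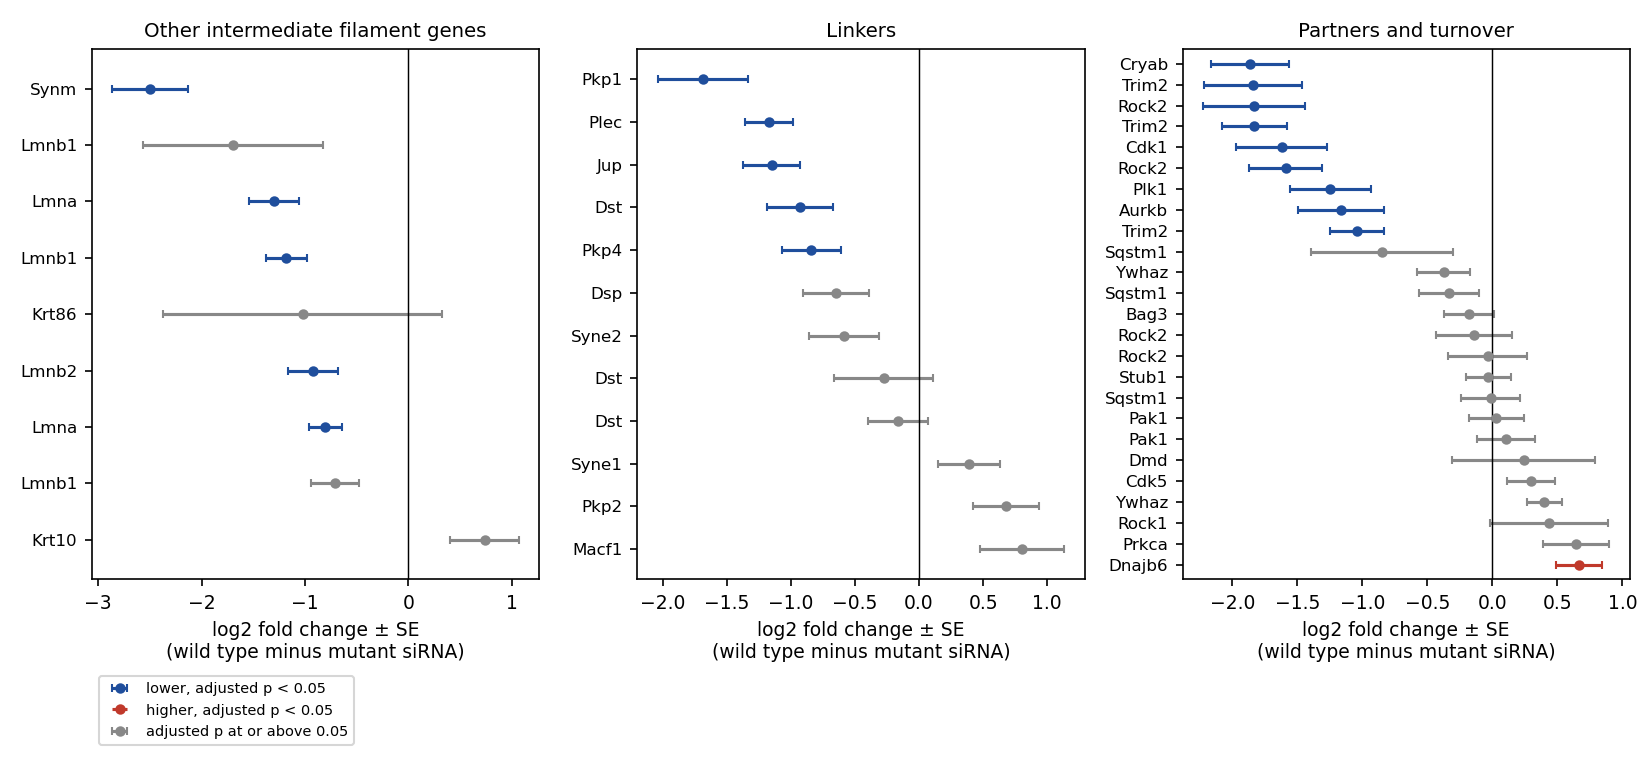
Log2 fold change (wild type minus mutant siRNA) ± SE from limma for every tested probe set of the other intermediate filament genes (9), linkers (12) and partners (25), blue where lower, red where higher and grey where the adjusted p was at or above 0.05. Synm at -2.50, Plec at -1.17 and Cryab at -1.86 kept their calls with each array left out, and Dnajb6, at 0.67, is the single higher call.

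The profiles most like those of Gfap and of the higher Sync probe set were looked up over the 4 arrays, among 12697 tested probe sets with a single symbol, as the root mean square distance between log2 profiles after each was centred on its own mean. Nearest to Gfap were Fam181b, with signals of 181.5 and 103.5 with the wild type siRNA, against 788 and 665 with the mutant siRNA (distance 0.07), the receptor gene Notch1 (0.07) and Hook1, a microtubule-binding adaptor (0.09). Nearest to Sync were Borcs6, of a complex that positions lysosomes (0.12), Taf3, a subunit of the general transcription factor TFIID (0.14), and the junctional adhesion gene Jam2 (0.16). The distances rest on 4 arrays and are a description.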

How the data were processed

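RNA of RT4D6 cells was hybridised to 4 one-colour Affymetrix GeneChip Rat arrays, 2 per siRNA. The values that the authors deposited are linear MAS5 intensities, 1 per probe set. MAS5 is named, with no version, in the submitters' processing notes. Each array's mean without the lowest and highest 2% of signals was 500.2, so that values are scaled between arrays. The study's later steps (a filter on detection calls, median normalization and a t-test) are not part of these values. Gene symbols came from the platform annotation, in which 20826 of 31042 probe sets have 1 symbol, 436 several and 9780 none. A further 57 control probe sets were left out.

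The array's median was subtracted from its log2 signals, and limma 3.58.1 (R 4.3.3; lmFit, then eBayes allowing a trend with intensity) was run on 16125 probe sets, those reaching the median on at least 2 arrays. Calls were made at a Benjamini-Hochberg adjusted p under 0.05 over all of them. A log2 fold change is wild type minus mutant siRNA. The fit was run on data simulated under its own assumptions, with independent errors, which does not test those assumptions on these arrays. Tables, plots and the motif search used Python 3.11.15, pandas 2.3.3 and matplotlib 3.10.9. Members, lists and tests were chosen with earlier results of these data known, and all motifs but ACAAT after the values were seen. All member probe sets are named. From each other list the 4 called probe sets with the largest change at most were named by rule, and a few others after their values were seen. The median log2 fold change over all tested was 0.13 in this fit, 0.05 without centring and 0.08 with quantile normalization. Alternatives were those scalings, treatments of low signals, other filters, no intensity trend, the methods' t-test, a replicate block and each array left out. Labels do not say that replicates were separate cultures, and the paper calls the pairs independent. The number of arrays limits the precision.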

Additional observations from a re-analysis of the deposited data

How the results depend on the processing

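With 2 arrays a group, the calls rest on a spread shared over probe sets, and a fit with an array left out assumes equal spread for the lone array and the other group. Gfap, Nes and the dimmer Sync probe set kept their direction under every alternative that tested them, and the 2 lower and 1 higher member calls were the same in number under every scaling, treatment of low signals and variance model, without the filter and with the replicate block. Testing only probe sets at or above the median on all 4 arrays left 6 member probe sets, with 1 lower and 0 higher, as Gfap and that Sync probe set were not among them. With an array left out, member calls were 1 to 2 lower and 0 to 1 higher, those of the other filament genes 2 to 7 lower, those of linkers 1 to 5 lower and 0 to 1 higher, those of partners 5 to 9 lower and 0 to 1 higher, and those over all probe sets 706 to 2519 lower and 924 to 2128 higher.

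Without adjustment, the methods' t-test, taken as unpaired with equal variances on log2 values, called Gfap and Nefl 1370059_at, but neither Nes nor Sync, so that 2 members were lower and 0 higher. It called 3 probe sets of the other filament genes lower and 1 higher, 3 linkers lower, and 3 partners lower and 3 higher. After Benjamini-Hochberg adjustment it called 0 probe sets lower and 2 higher over the whole table, against 1386 and 2444 without it, and 0 in each direction among members and in each list. Without the intensity trend 1187 probe sets were lower and 1177 higher, with 3 probe sets of the other filament genes lower, 3 linkers lower, and 4 partners lower and 0 higher.

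Same-numbered arrays deviated together from their group means with a correlation of 0.14. The replicate block changed no member call and called 2 linkers (Macf1 and Pkp2) and 2 partners (Dnajb6 and a probe set of Ywhaz) higher. Among the marker lists it also called probe sets of Cald1, Col1a1, Col3a1 and Tyrp1 higher (adjusted p = 0.00234, 0.0240, 0.0277 and 0.0246) and of Smtn and Pmel lower (adjusted p = 0.0127 and 0.0365). With an array left out, 5 of the 6 member probe sets that did not pass changed sign, all but Nefl 1370059_at: the log2 fold change was between -0.28 and 0.0058 for Vim, -0.17 and 0.084 for Nefl 1370058_at, -0.60 and 0.36 for Nefm, -0.76 and 0.45 for Krt8 and -0.31 and 0.26 for Sync 1383599_at. The cause of these differences was not tested.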
